A study of Homo sapiens with 4 samples.

Results

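Mucins are large glycoproteins whose long stretches rich in serine, threonine and proline carry dense O-linked sugars. Membrane mucins stay anchored in the apical surface of epithelial cells, where they form a barrier and signal, while gel-forming mucins are secreted and link into mucus. In ovarian carcinoma the family is known for MUC16, whose shed form is the serum marker CA-125, and for MUC1, which is overexpressed and underglycosylated in many carcinomas.

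The genes described here are 9 of the 65988 gene identifiers in the count table: the membrane mucins MUC1, MUC4, MUC12, MUC13, MUC15, MUC16 and MUC20 and the gel-forming mucins MUC5AC and MUC5B, matched by gene symbol. They were chosen with the counts of the same comparison in view, so their values are a description. The fit over all genes gave them a place above or below its threshold, which is counted once and supports nothing. Of the 9 genes, 8 had reads in at least 1 library. MUC15 was listed at 0 in all 4 and is treated as not measured. MUC4 had 7 identifiers and MUC20 had 8 under 1 symbol, of which 1 each had reads, the copy placed on chromosome 3.

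SKOV3 is an established cell line from a human ovarian carcinoma. Its RNA was sequenced as 2 wild-type libraries (labelled cisplatin susceptible) and 2 libraries of SKOV3 CR, the cisplatin-resistant derivative. Per the labels, SKOV3 CR came from wild-type cells given cisplatin for 4 hours in each of 6 cycles over 5 months, at rising concentration and with 3 weeks of drug-free medium between exposures. Both kinds of cells were collected untreated in log growth. The resistant cells are described as 1 selection, and no control line kept in culture for those months was analysed, so resistance and divergence of the line cannot be told apart.

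The libraries held between 43658695 counts (wild-type replicate 1) and 79592903 counts (resistant replicate 2). Levels are given in CPM, counts scaled to library size after TMM normalization, and 1 CPM stands for 42.6 to 83.1 counts. The errors of levels are SD over the 2 libraries of a group, and those of log2 changes, resistant over wild type, are SE. The ovarian carcinoma and epithelial markers summed to 6610 and 7275 CPM in the wild-type libraries and to 3512 and 2862 CPM in the resistant ones. The keratin KRT7 (365 ± 47.2 against 3.21 ± 0.0932 CPM), EPCAM (31.6 ± 0.983 against 3.59 ± 0.753) and E-cadherin (CDH1, 11.9 ± 0.249 against 0.258 ± 0.0259) were the markers with the largest falls. Of the 11 tested markers 6 fell and 2 rose, the latter being WT1 (0.853 ± 0.188 against 2.02 ± 0.182 CPM, a call lost without resistant replicate 1) and MSLN (17.8 ± 4.59 against 27.8 ± 3.96), while the keratin KRT19 (144 ± 12.97 against 144 ± 13.5) and PAX8 (3.14 ± 0.821 against 4.66 ± 0.546) were not called. Most of the sum was ERBB2, at 5509 ± 368 and 2457 ± 542 CPM. Of 12 such markers 11 had reads, the ovarian lineage factor PAX8 among them. Of the exon bases of PAX8 95.7% lie in the span of another gene, PAX8-AS1. The folate receptor FOLR1, whose exons lie wholly within another gene, was listed at 0 and is treated as not measured. Markers of other cell types, 15 in all, summed to 38.5 and 46.05 CPM for wild type and to 63.3 and 58.1 CPM for resistant libraries. Of the blood cell markers PTPRC had 0, 0, 6 and 27 counts and CD3E 0, 1, 0 and 0. These counts are in the order wild-type replicates 1 and 2 and resistant replicates 1 and 2. The stromal marker THY1, whose exons lie wholly within other genes, was listed at 0 and is treated as not measured. The fibroblast gene DCN had the largest rise among markers of other cell types (0.0567 ± 0.0526 against 26.7 ± 6.87 CPM). The fibroblast gene LUM (0.812 ± 0.0468 against 5.06 ± 1.07) and the collagen gene COL1A1 (11.3 ± 5.04 against 20.4 ± 3.60) also rose, as did the liver gene ALB. The log2 change of COL1A1 was 0.84 ± 0.25, or 0.46 without wild-type replicate 1. That of ALB was 1.41 ± 0.33, or 1.01 without resistant replicate 2, so both rises depend in size on 1 library. The collagen gene COL1A2 (19.1 ± 1.85 against 3.78 ± 0.721) and the endothelial genes PECAM1 (8.93 ± 1.81 against 0.81 ± 0.0627) and VWF fell. Of the 8 tested in that list 4 rose and 3 fell. The shares called were 72.7% for the ovarian carcinoma and epithelial markers and 87.5% for this list, against 45.3% of all tested genes. The part of these markers in the mucin values was not tested. In bulk libraries fewer cells of a type and less RNA per cell cannot be told apart.

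The repeats that give mucins their glycosylation sites are visible in the reference transcripts, and they bear on how reads from these genes can be placed. The units below come from the coding sequence of the longest protein-coding transcript in GENCODE release 29 (GRCh38). For each gene a repeat length was chosen by the share of bases that match at that distance. The most frequent exact unit of that length is given for members with at least 3 exact copies, 5′ to 3′ and in frame. Capitals mark serine and threonine codons, the possible acceptors of O-linked sugar.
MUC1: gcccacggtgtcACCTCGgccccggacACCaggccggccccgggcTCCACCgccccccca
MUC4: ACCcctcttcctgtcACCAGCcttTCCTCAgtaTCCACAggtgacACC
MUC20: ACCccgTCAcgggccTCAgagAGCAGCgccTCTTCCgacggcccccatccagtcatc
MUC12: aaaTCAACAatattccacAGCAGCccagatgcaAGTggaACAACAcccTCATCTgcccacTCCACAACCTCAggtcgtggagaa
MUC5AC: AGCcctgttcccACCACCAGCACA
MUC5B: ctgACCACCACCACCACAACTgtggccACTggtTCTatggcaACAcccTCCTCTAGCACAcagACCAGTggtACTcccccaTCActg

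The MUC1 unit spans 60 bases (20 codons, of which 5 encode serine or threonine and 5 proline) and occurred in 19 exact copies. The MUC4 unit of 48 bases occurred 14 times, the MUC20 unit of 57 bases 10 times and the MUC5AC unit of 24 bases, with 5 serine or threonine codons among its 8, occurred 15 times. The MUC5B unit (87 bases) and the MUC12 unit (84 bases) had the fewest exact copies of the 6, with 5 and 4. Over the whole coding sequence, serine and threonine codons made up 23.4% (MUC15) to 44.6% (MUC12). MUC16 had the longest coding sequence, 14507 codons, and MUC15 the shortest, 334 codons.

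Reads from repeats, or from sequence that another gene shares, may be placed ambiguously. Of the 31-base words of the MUC12 transcript 66.9% recurred in it, against 48.2% for MUC1, 41.9% for MUC4 and 3.61% for MUC16. Sequence shared with transcripts of other genes was rare in 7 members, at 0% to 3.12% of words, and 4.35% in MUC15. MUC20 was the exception, with 74.6% of its words in another gene and 51.9% in its pseudogene copy MUC20P1. In addition, 96.7% of the exon bases of MUC20 lie in the span of the noncoding gene MUC20-OT1 and 42.8% in its exons. The counts of MUC20 are therefore uncertain throughout. MUC15 lies wholly within the span of ANO3 on the opposite strand. Of the 2015 protein-coding genes with all exons inside other genes 77.1% were listed at 0, against 14.1% of the 9449 with no such overlap.

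**Figure D1:**
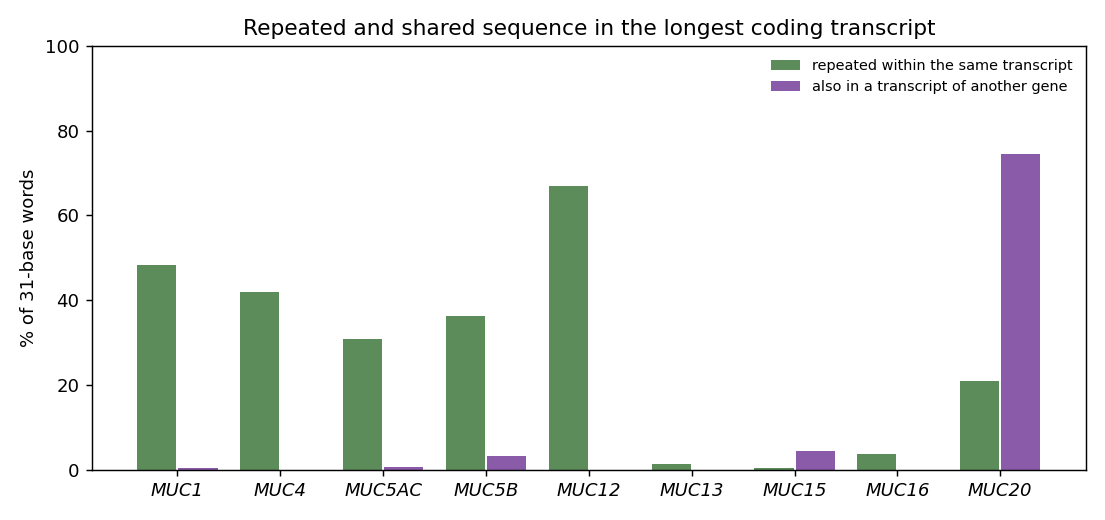
Percent of 31-base words (y axis) in the longest coding transcript of each mucin (x axis) that recur in the same transcript (green) or occur in a transcript of another gene (purple). MUC12 has the highest share of recurring words (66.9%), and MUC20 stands out for words shared with other genes (74.6%).

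MUC1 was the most abundant mucin in both kinds of cells and was lower in the resistant cells, while MUC5AC, the second in wild-type cells, was nearly without reads in resistant cells. MUC16, MUC4 and MUC20 were also lower in both resistant libraries. MUC13 went the other way, and MUC12 was higher at a low level. MUC5B had too few reads for a direction. Together the 9 genes held 108 and 119 CPM in wild-type cells, against 16.1 and 18.9 CPM in resistant cells.

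**Figure D2:**
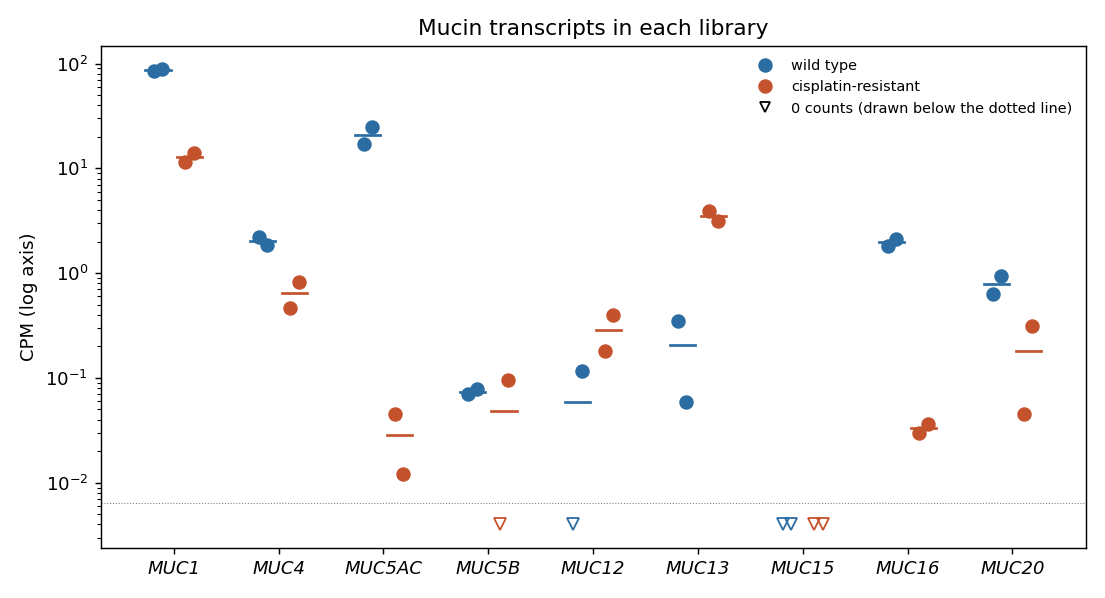
CPM on a log axis for each mucin (x axis) in each library: points are single libraries, short lines the mean of the 2 libraries of a group, and open triangles libraries with 0 counts. The groups are apart for MUC1, MUC4, MUC5AC, MUC12, MUC13, MUC16 and MUC20, overlap for MUC5B, and MUC15 has no reads.

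MUC1, a membrane mucin whose cytoplasmic tail binds beta-catenin and receptor kinases, lies on chromosome 1 (155185824 to 155192916, GRCh38). MUC1 had 3643 and 4587 wild-type counts (replicates 1 and 2) against 759 and 1173 in resistant replicates 1 and 2, or 85.5, 89.3, 11.4 and 14.1 CPM. Both resistant libraries lay far below both wild-type libraries, and replicates differed by at most 1.24 times. The fitted log2 change was -2.78 ± 0.14 (SE), and the counts pooled over each group and scaled to depth gave a ratio, always of the higher group to the lower, of 6.79 (95% exact binomial interval 6.46 to 7.14, which like the others below covers counting error only). MUC1 made up 74.8% to 79.5% of the counts of the 9 genes in wild-type libraries and 70.9% to 74.5% in resistant libraries.

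MUC16, the CA-125 antigen and a ligand of mesothelin, lies on chromosome 19 (8848844 to 8981342). MUC16 had 77 and 109 wild-type counts against 2 and 3 in the resistant replicates, or 1.81, 2.12, 0.03001 and 0.0361 CPM. The few resistant reads put the pooled ratio at 59.3, with a wide interval of 24.97 to 185. The fitted log2 change of -5.80 ± 0.56 rests on those 5 resistant reads.

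MUC4, a membrane mucin that binds ERBB2, and MUC20, which interacts with the receptor MET, are neighbours on chromosome 3 (195746765 to 195812277 and 195720882 to 195741123). MUC4 had 94 and 95 counts in wild-type and 31 and 69 in resistant replicates 1 and 2, or 2.21, 1.85, 0.465 and 0.83 CPM. The groups did not overlap, although the resistant replicates differed by 1.78 times. Its fitted log2 change was -1.63 ± 0.39 and its pooled ratio 3.01 (2.35 to 3.88). MUC20 had 27 and 48 counts in wild-type and 3 and 26 in resistant replicates 1 and 2, or 0.634, 0.935, 0.04501 and 0.313 CPM. Its resistant replicates differed by 6.95 times, which is wider than the gap between resistant replicate 2 and the wild-type libraries. The fitted log2 change of MUC20 was -2.08 ± 0.75 (pooled ratio 4.12, 2.65 to 6.57). Without resistant replicate 1 it was -1.32, and without resistant replicate 2 the ratio was 17.7 (5.84 to 88.0), resting on 3 resistant counts. The 2 genes that share sequence with MUC20 had values of their own: MUC20P1 had 71 and 163 counts in wild-type and 126 and 168 in resistant replicates (log2 change -0.31 ± 0.33, edgeR adjusted p = 0.463), and MUC20-OT1 fell from 67.6 ± 3.31 to 48.8 ± 3.88 CPM (-0.47 ± 0.12, edgeR adjusted p = 0.00849).

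MUC5AC, the gel-forming mucin of airway and stomach surface cells, lies on chromosome 11 (1157953 to 1201138), beside MUC5B (1223066 to 1262172). MUC5AC had 723 and 1280 counts in wild-type and 3 and 1 in resistant replicates 1 and 2, or 16.98, 24.9, 0.04501 and 0.01203 CPM. The wild-type libraries differed from each other by 1.47 times, and both resistant libraries lay far below them. The fitted log2 change was -9.51 ± 0.40, and with 4 resistant reads the pooled ratio of 799 had a wide interval (311 to 2934). It was 1773 (318 to 70067) without resistant replicate 1 and 474 (162 to 2299) without resistant replicate 2, where 1 and 3 counts remain. MUC5B, the main mucin of cervical and airway mucus, had 3 and 4 counts in wild-type and 0 and 8 in resistant replicates 1 and 2. A difference in MUC5B was not detectable at this depth, with a pooled ratio of 1.40 (0.431 to 4.4). Its count was too low for the filter of the fit. Of its exon bases 39.9% lie in the span of other genes and 2.33% in their exons.

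MUC13, a membrane mucin of the gut lining that is raised in several carcinomas, lies on chromosome 3 (124905442 to 124953819). MUC13 had 15 and 3 counts in wild-type and 261 and 262 in resistant replicates 1 and 2, or 0.352, 0.0584, 3.92 and 3.15 CPM. The resistant libraries were close to each other and far above the wild-type libraries, which differed by 6.03 times. The fitted log2 change was 4.16 ± 0.51, and the pooled ratio was 18.2 (11.4 to 30.98). It rests on the few wild-type reads, being 59.8 (20.3 to 291) without wild-type replicate 1 and 9.91 (5.95 to 17.8) without wild-type replicate 2.

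MUC12, another membrane mucin of the gut, lies on chromosome 7 (100969623 to 101018949). MUC12 had 0 and 6 counts in wild-type and 12 and 33 in resistant replicates 1 and 2, or 0, 0.117, 0.18005 and 0.397 CPM. Both resistant libraries were above both wild-type libraries, by little in resistant replicate 1. The fitted log2 change was 2.19 ± 1.03 and the pooled ratio 4.70 (2.00 to 13.5). Without wild-type replicate 2 the wild-type group is at 0 and MUC12 was at least 4.26-fold higher, against a floor of 3 counts over the group. The ratio was 2.57 (1.09 to 7.37) without wild-type replicate 1 and 2.82 (0.979 to 9.15) without resistant replicate 2.

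The fit covered 18602 genes and 7 of the 9 mucins, since MUC5B and MUC15 did not pass its filter on low counts. In edgeR's quasi-likelihood test 5 of the 7 were past the adjusted threshold of 0.05 with lower and 1 with higher counts in resistant cells, where 23.2% of all tested genes were called lower and 22.1% higher (45.3% in either direction). MUC12 was the member not past it. Groups did not overlap in CPM for any of the 7, with 5 lower and 2 higher, where 36.4% of all tested genes were lower and 37.2% higher in both resistant libraries. Since the genes were chosen on this comparison, nothing is read from these counts.

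Levels of different genes are compared as CPM per kilobase of exon. The lengths were not corrected for repeated or shared sequence, so the place of MUC20 in the order is as uncertain as its counts. In wild-type cells MUC1 led with 18.5 ± 0.57 CPM per kilobase (SD, n = 2), followed by MUC5AC at 1.20 ± 0.322, MUC20 at 0.185 ± 0.0501, MUC4 at 0.0951 ± 0.0118, MUC13 at 0.0587 ± 0.0594 and MUC16 at 0.0448 ± 0.00508. The first 4 places were apart beyond the replicate ranges, while MUC4 overlapped MUC13, and MUC13 overlapped MUC16. MUC5B and MUC12 came last, at 0.00399 ± 0.000284 and 0.00341 ± 0.00482, and overlapped each other. In resistant cells MUC1 led again with 2.70 ± 0.408 CPM per kilobase, and MUC13 was second with 1.01 ± 0.155, both apart from the rest. MUC20, MUC4 and MUC12 followed at 0.0421 ± 0.0445, 0.0304 ± 0.0121 and 0.0168 ± 0.00895, each overlapping the next. MUC5B, MUC5AC and MUC16 were lowest, at 0.00259 ± 0.00366, 0.00163 ± 0.00134 and 0.000754 ± 9.80e-05, and were not apart from one another in sequence. The share of MUC1 in the summed level per length was 91.3% to 92.97% in wild-type and 67.4% to 74.1% in resistant libraries. That of MUC13 was 0.0805% to 0.516% and 22.3% to 31.3%, and that of MUC5AC 4.99% to 6.89% and 0.0171% to 0.0721%.

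**Figure D3:**
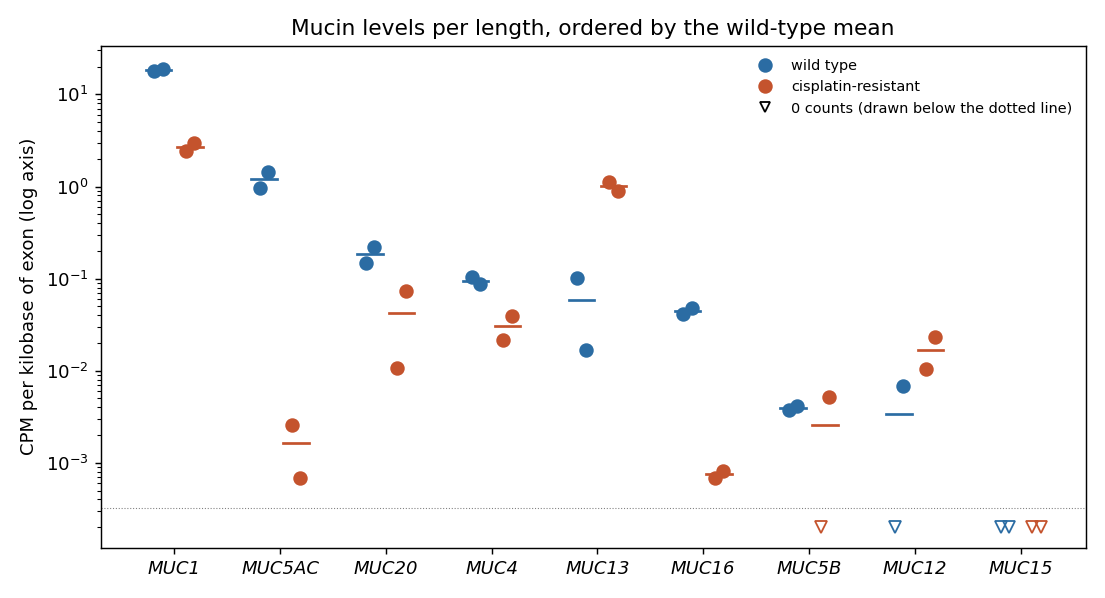
CPM per kilobase of exon on a log axis for each mucin, ordered by the wild-type mean (x axis), with points for libraries, short lines for group means and open triangles for 0 counts. MUC1 is highest in both groups, and MUC13 moves from the fifth place in wild-type cells (0.0587) to second in resistant cells (1.01).

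Promoter windows from RefSeq (GRCh38.p14, 250 bases before to 50 after a start) were at hand for 5 of the 9 genes. They are shown for MUC1 and MUC4, which were lower in resistant cells, and for MUC13, which was higher, on the minus strand and 5′ to 3′. Capitals mark matches on either strand to GGAAG (the core bound by ETS factors), GGGCGG (the GC box), CACCTG (an E-box bound by repressors of the SNAIL family), TTCNNNGAA (the STAT palindrome), GTTAAT (a half-site of HNF1) and TATAAA (the TATA box), some of which overlap one another.
MUC1, chr1:155192866-155193165: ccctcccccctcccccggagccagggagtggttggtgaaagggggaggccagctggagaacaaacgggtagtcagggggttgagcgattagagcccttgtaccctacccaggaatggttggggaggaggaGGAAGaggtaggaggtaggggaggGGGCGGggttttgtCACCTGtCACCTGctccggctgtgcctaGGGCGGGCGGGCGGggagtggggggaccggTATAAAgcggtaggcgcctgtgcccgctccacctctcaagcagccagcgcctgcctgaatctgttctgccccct
MUC4, chr3:195811880-195812179: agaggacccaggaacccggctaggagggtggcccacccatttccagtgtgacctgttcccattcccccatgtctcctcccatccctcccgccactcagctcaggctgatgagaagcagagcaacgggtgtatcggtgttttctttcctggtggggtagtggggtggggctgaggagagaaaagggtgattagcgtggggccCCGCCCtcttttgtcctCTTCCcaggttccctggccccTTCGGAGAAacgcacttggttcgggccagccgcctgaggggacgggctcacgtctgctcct
MUC13, chr3:124934702-124935001: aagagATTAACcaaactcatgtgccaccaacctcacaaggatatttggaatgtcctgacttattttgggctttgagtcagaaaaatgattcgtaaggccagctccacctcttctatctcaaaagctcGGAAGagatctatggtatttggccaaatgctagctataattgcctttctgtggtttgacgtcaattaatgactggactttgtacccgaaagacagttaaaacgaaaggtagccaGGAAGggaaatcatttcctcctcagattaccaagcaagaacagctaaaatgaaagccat

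The MUC1 window held 4 GC boxes, of which 3 overlap, 2 adjacent CACCTG E-boxes starting 82 and 75 bases before the start, and a TATA box. The MUC4 window held 1 GC box and 1 STAT palindrome, and the MUC13 window 1 HNF1 half-site. All 3 held at least 1 ETS core. Over 35116 RefSeq windows of the same length, 71.9% held the ETS core, 45.0% the GC box, 20.6% the CACCTG E-box, 11.5% the TATA box, 7.66% the STAT palindrome and 6.88% the HNF1 half-site. GC content was 65.7% for MUC1, 62.0% for MUC4 and 41.0% for MUC13, where the median window had 58.7%. These matches describe the letters of the windows, and no binding was measured.

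The genes beside the mucins on the chromosome were listed with them. For the 6 loci with a tested member, the 3 nearest tested protein-coding genes on each side were taken, 36 genes in all, of which 4 rose, 12 fell and 20 were not called in edgeR's quasi-likelihood test, where 45.3% of all genes were called. Around MUC1 the log2 changes of its neighbours ran from -0.57 to 0.38. THBS3, whose nearer edge is 2.67 kb away, had 0.04 ± 0.19 (edgeR adjusted p = 0.879). Around MUC13, where the mucin was higher, the neighbours ran from -2.44 to 0.14. The nearest, ITGB5 at 4.02 kb, had a log2 change of -0.26 ± 0.12 and was not called (edgeR adjusted p = 0.109). HEG1, at 11.9 kb, fell from 55.4 ± 2.43 to 32.5 ± 5.20 CPM (edgeR adjusted p = 0.00103). Around MUC5AC and MUC5B 4 of the 6 fell, with log2 changes from -1.48 to -0.20 over all 6. The lowest belongs to another mucin, MUC6, which had few reads (0.469 against 0.162 CPM) and was not called (edgeR adjusted p = 0.13). TOLLIP, at 12.2 kb, fell by 0.53 ± 0.13 (edgeR adjusted p = 0.00622), a call lost without wild-type replicate 2 (-0.40, edgeR adjusted p = 0.108). Around MUC4 and MUC20 the neighbours ran from -0.90 to 0.26, and around MUC12 from -0.54 to 1.29. MUC16 had the widest spread, from -3.76 for ADAMTS10 at 238 kb to 1.71 for ZNF699 at 313 kb. Whether a mucin differs from its neighbours was not tested.

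**Figure D4:**
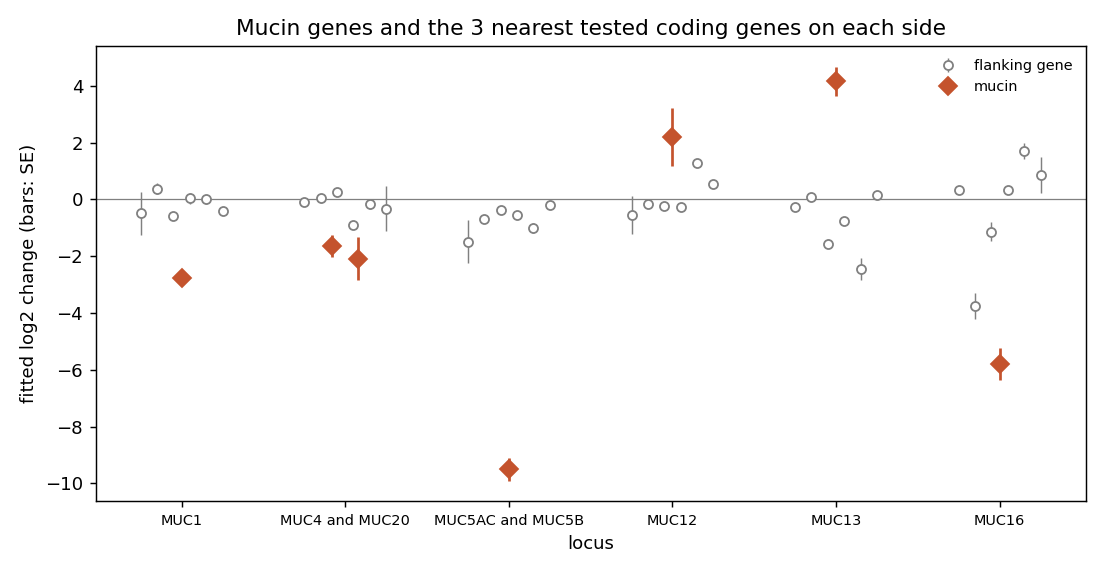
Fitted log2 change, resistant over wild type (y axis, bars show the SE), of the tested mucins (red diamonds) and of the 3 nearest tested coding genes on each side (open circles) at 6 loci (x axis). Neighbours of MUC1 lie between -0.57 and 0.38, while MUC1 is at -2.78, and neighbours of MUC13 lie at or below 0.14, while MUC13 is at 4.16.

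The genes whose levels over the 4 libraries lay nearest to a mucin were found by Euclidean distance in log2(CPM + 0.5) among tested protein-coding genes, for the members at the ends of the range of change. Nearest to MUC5AC were the receptor genes GPR27 (distance 0.212), MCAM (0.263) and GFRA1 (0.399). GFRA1 had 23.9 ± 3.60 CPM against 0.0675 ± 0.0955 CPM. Nearest to MUC13 were EFCAB1 (0.459), PLVAP (0.478) and CABCOCO1 (0.552), with PLVAP at 0.264 ± 0.125 and 3.33 ± 0.483 CPM.

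Of 11 other genes named as mucins, MUC8 was not matched to the table and MUCL3, whose exons lie wholly within another gene, was listed at 0 and is treated as not measured. Of the other 9, MUC6 and MUC7 passed the filter on low counts and 7 did not, and edgeR's quasi-likelihood test called 0 of these 2 genes (1 at an unadjusted p under 0.05, and 0 in DESeq2). The secreted mucin MUC6 had 20 and 24 wild-type counts against 4 and 22 resistant counts (log2 change -1.48 ± 0.75, edgeR adjusted p = 0.13), and the salivary mucin MUC7 had 11 and 7 against 44 and 36 (1.47 ± 0.66, edgeR adjusted p = 0.0891).

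Other surface proteins with mucin-like domains or an old mucin name moved both ways. Of 12 tested, 4 rose and 5 fell (75% called, median log2 change -0.15, against 45.3% and 0.003 over all tested genes). The cell adhesion molecule MCAM, once called MUC18, fell from 20.4 ± 1.83 to 0.02703 ± 0.00421 CPM, and CD34, a sialomucin of blood vessels and stem cells, fell by 6.70 ± 0.31 on the log2 scale (log2 change -7.43 without resistant replicate 2). SELPLG, the ligand of P-selectin, fell by 1.10 ± 0.19. HAVCR1 rose from 4.02 ± 0.123 to 29.6 ± 10.1 CPM and the podocalyxin gene PODXL rose by 0.59 ± 0.12, while OVGP1, the oviduct mucin MUC9, rose by 0.54 ± 0.18. Their edgeR adjusted p-values ran from 3.64e-09 for MCAM to 0.0324 for OVGP1. The most abundant were TMEM123, which fell by 0.56 ± 0.13, CD44, which rose by 0.32 ± 0.11, and CD164 (0.08 ± 0.11, edgeR adjusted p = 0.584). The calls of OVGP1, TMEM123 and CD44 were lost without wild-type replicate 1, where 2 genes of the list were called higher (log2 changes 0.39, -0.43 and 0.33, edgeR adjusted p = 0.201, 0.0598 and 0.18). OVGP1 was also not called without resistant replicate 2, nor CD44 without wild-type replicate 2 (0.37 and 0.32, edgeR adjusted p = 0.131 and 0.21). Of the exon bases of MCAM 57.3% lie in the span of other genes.

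The first sugar of a mucin-type O-glycan is added by GalNAc transferases, of which 14 were tested. Of these, 4 rose and 2 fell (42.9% called, against 45.3% of all tested genes, median 0.27). GALNT6 rose from 0.23 ± 0.06 to 4.48 ± 0.14 CPM, GALNT5 from 0.225 ± 0.18 to 1.28 ± 0.2 CPM and GALNT10 rose by 0.90 ± 0.24. GALNT18 fell by 2.56 ± 0.42 and GALNT14 from 20.9 ± 1.44 to 5.90 ± 0.667 CPM. The edgeR adjusted p lay between 2.09e-06 (GALNT6) and 0.00993 (GALNT10). GALNT10 lies to 97.3% of its exon bases within other genes, and its call was lost without resistant replicate 1 (0.65, edgeR adjusted p = 0.066). The log2 change of GALNT5 was 3.70 without wild-type replicate 1 and 1.86 without wild-type replicate 2. The most abundant transferases, GALNT1 (0.01 ± 0.13), GALNT2 (0.24 ± 0.15) and GALNT7 (0.30 ± 0.13), were not called, with edgeR adjusted p-values of 0.959, 0.22 and 0.0833, although GALNT2 and GALNT7 were called higher without resistant replicate 2 (edgeR adjusted p = 0.00357 and 0.0104).

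Of 22 tested enzymes that extend and cap the glycan, 4 rose and 8 fell (54.5% called, against 45.3% of all tested genes, median -0.14). C1GALT1, which makes the core 1 structure, rose from 17.9 ± 0.745 to 34.5 ± 0.603 CPM. GCNT3, which branches it, rose from 27.1 ± 2.42 to 65.6 ± 8.1 CPM, and the sialyltransferase ST3GAL1 rose by 1.27 ± 0.17. The sulfotransferase CHST1 fell by 2.97 ± 0.44, the fucosyltransferase FUT2 by 1.35 ± 0.36 and the sialyltransferase ST6GALNAC4 from 25.6 ± 1.65 to 11.5 ± 0.436 CPM. The abundant CHST2 fell from 340.2 ± 24.9 to 195 ± 5.36 CPM. Among these 7 genes the edgeR adjusted p lay between 2.6e-05 (GCNT3) and 0.00975 (FUT2). The branching enzyme GCNT1 fell by 0.35 ± 0.12 (edgeR adjusted p = 0.0392), a call lost without either wild-type replicate or without resistant replicate 2 (edgeR adjusted p = 0.102, 0.246 and 0.171).

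**Figure D5:**
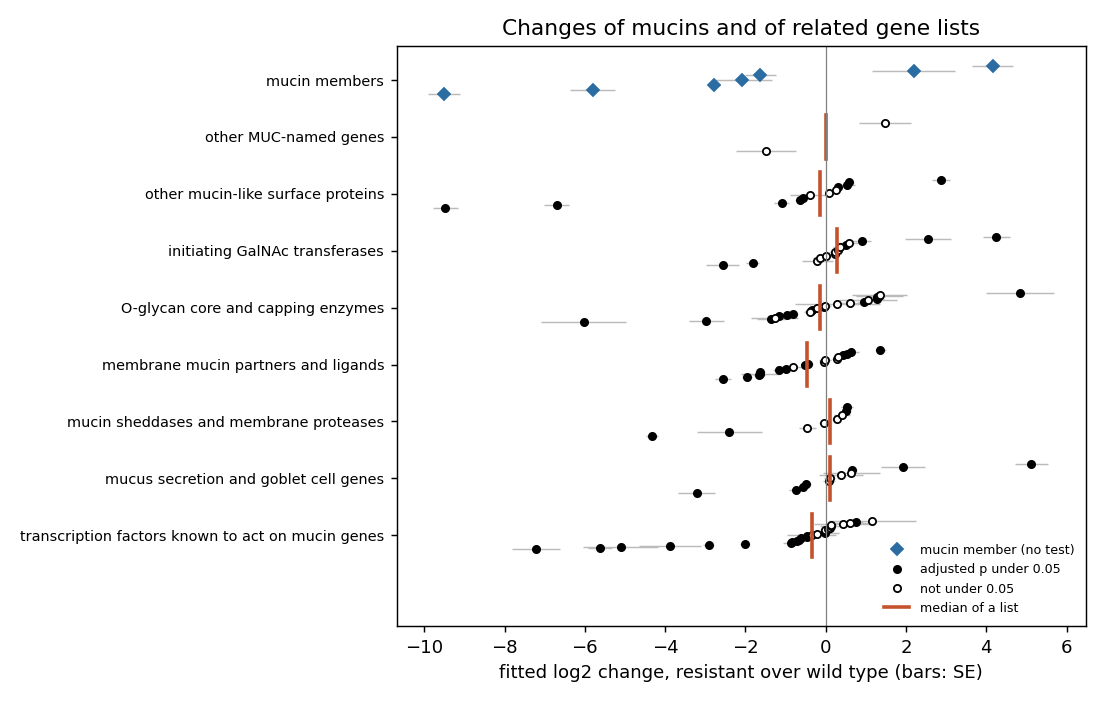
Fitted log2 change, resistant over wild type (x axis, bars show the SE), of the 7 fitted mucins (blue diamonds, no test) and of the tested genes of 8 related lists (y axis), filled where the edgeR adjusted p was under 0.05, with a red line at each list's median. The medians lie between -0.47 for membrane mucin partners and 0.27 for GalNAc transferases, and each list except the other MUC-named genes has called genes on both sides of 0.

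Binding partners and ligands of membrane mucins had 18 tested genes, of which 9 fell and 4 rose (median -0.47). The share called was 72.2%, against 45.3% of all tested genes. ERBB2, the partner of MUC4, fell from 5509 ± 368 to 2457 ± 542 CPM, ERBB4 from 11.9 ± 0.942 to 2.03 ± 0.00499 CPM and plakoglobin (JUP) from 333 ± 40.2 to 85.02 ± 3.64 CPM. SLC9A3R1, a scaffold that joins membrane proteins to ezrin, fell by 1.66 ± 0.14, and ezrin itself (EZR) fell by 0.51 ± 0.11. MET, the partner of MUC20, rose from 155 ± 7.58 to 396 ± 73.97 CPM, the related linker moesin (MSN) rose by 0.54 ± 0.12, and mesothelin (MSLN), the ligand of MUC16, rose from 17.8 ± 4.59 to 27.8 ± 3.96 CPM. The edgeR adjusted p lay between 3.48e-07 (JUP) and 0.0154 (MSLN), and the MSLN call was lost without wild-type replicate 1 (0.41, edgeR adjusted p = 0.133).

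Proteases that can release mucins from the surface had 2 of 8 tested genes higher and 2 lower (median 0.11). The share called was 50%, against 45.3% of all tested genes. The matrilysin MMP7 had 7172 and 7843 wild-type counts against 589 and 603 resistant counts, and fell from 161 ± 11.1 to 8.04 ± 1.12 CPM (log2 change -4.32 ± 0.15, edgeR adjusted p = 4.25e-09). ADAM17, a known sheddase of MUC1, rose by 0.52 ± 0.14 and the convertase FURIN by 0.52 ± 0.12 (edgeR adjusted p = 0.0121 and 0.00383). Without wild-type replicate 1 neither ADAM17 nor FURIN was called (log2 changes 0.49 and 0.44, edgeR adjusted p = 0.0554 and 0.0634), nor was ADAM17 without resistant replicate 1 (0.35, edgeR adjusted p = 0.0673). ADAM9 and ADAM10, among the most abundant, were not called (log2 changes 0.40 ± 0.20 and -0.05 ± 0.11, edgeR adjusted p = 0.123 and 0.761). ADAM9 was called higher without resistant replicate 2 and without wild-type replicate 1 (edgeR adjusted p = 2.24e-06 and 0.0498).

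Genes of mucus secretion and goblet cells had 11 of 18 members tested, of which 3 rose and 4 fell (median 0.10). The share called was 63.6%, against 45.3% of all tested genes. CREB3L1 rose from 0.31 ± 0.305 to 11.4 ± 1.5 CPM, and its log2 change of 5.12 ± 0.41 was 4.44 without wild-type replicate 1 and 6.89 without wild-type replicate 2. RAB27A, a small GTPase of secretory granules, rose by 0.65 ± 0.13. The lectin ZG16B fell from 1.81 ± 0.469 to 0.194 ± 0.00185 CPM, and the exocytosis genes STXBP2, MARCKS and VAMP8 fell by 0.74 ± 0.16, 0.55 ± 0.11 and 0.49 ± 0.12. The edgeR adjusted p lay between 2.26e-06 (CREB3L1) and 0.00606 (VAMP8), whose call was lost without wild-type replicate 1 (edgeR adjusted p = 0.0786). The goblet cell peptides TFF1, TFF2 and TFF3 and the mucin chaperone homologue AGR3 were listed at 0 in all libraries. The chaperone AGR2 was called higher at a low level, with 12 and 8 wild-type counts against 58 and 65 resistant counts. Its log2 change was 1.92 ± 0.56 (edgeR adjusted p = 0.0151). FCGBP and ERN2 had reads and were not called (edgeR adjusted p = 0.615 and 0.491).

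Transcription factors known to act on mucin genes had 27 tested genes, of which 13 fell and 1 rose (51.9% called, median -0.35). Over all tested genes 23.2% were called lower and 22.1% higher (45.3% in either direction). Among the factors with at least 1 CPM in both libraries of a group, the largest falls were those of 3 epithelial ETS factors. EHF had 2165 and 2306 wild-type counts against 95 and 47 in resistant replicates 1 and 2, and fell from 47.9 ± 4.19 to 0.995 ± 0.608 CPM (log2 change -5.62 ± 0.31, or -6.39 without resistant replicate 1). ELF3 had 3113 and 4195 counts in wild-type and 696 and 835 in resistant replicates, and fell from 77.4 ± 6.09 to 10.2 ± 0.283 CPM (-2.92 ± 0.13). Of the exon bases of ELF3 66.1% lie in the span of other genes and 18.5% in their exons. ELF5 had 97 and 120 counts in wild-type and 1 in each resistant library, a ratio of 173 (counting interval 47.3 to 1438). Their edgeR adjusted p-values were 1.21e-07, 3.29e-08 and 3.07e-06. Among the abundant factors STAT3 fell by 0.84 ± 0.12 (edgeR adjusted p = 0.000201), while STAT6 had -0.21 ± 0.11 (edgeR adjusted p = 0.135). NOTCH1 was the factor called higher, by 0.76 ± 0.16 (edgeR adjusted p = 0.00263).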

How the data were processed

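Polyadenylated RNA of 4 SKOV3 libraries was made into strand-keeping libraries, per the labels' protocols. The authors deposited whole-number read counts per gene, not normalized, and a normalized signal that equals each count divided by 1 factor per library (0.7247, 0.8794, 1.132 and 1.418), used here only to check that. STAR 2.5.1a, GRCh38.p7, HTSeq and DESeq are named, per the submitters' processing notes. How reads were counted by strand and with which annotation is not stated, nor whether replicates were separate cultures, so p-values measure the spread between these libraries, which may be technical.

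Counts were tested with edgeR 4.0.16 (R 4.3.3): quasi-likelihood F test, TMM, filterByExpr (minimum count 10, minimum total 15), group as the only term, Benjamini-Hochberg over all 18602 genes, threshold 0.05. The SE is the log2 change divided by the square root of F. DESeq2 1.42.0 was an alternative. The fit was tested on simulated data. Lengths, overlaps and transcripts came from GENCODE release 29. Tandem repeats were searched at distances of 12 to 600 bases.

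From each list the text names up to 3 called genes per direction with the largest changes, having at least 1 CPM in both libraries of a group, and the 3 most abundant; some genes this rule picks are not reported here. Neighbouring genes that are named, and the genes with shared or overlapping sequence, were picked after their values were seen. The members and lists were chosen with earlier results of these data known. Same-numbered libraries deviated together with a correlation of 0.0797 across genes, which does not pair them.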

Additional observations from a re-analysis of the deposited data

How the results depend on the processing

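The alternatives were DESeq2, DESeq2's size factors in edgeR, no filter on low counts, the replicate number as a block, and leaving out each library, and the changes of the 7 fitted mucins kept their sign under them. MUC12 did not pass the filter without resistant replicate 2, so that fit gave it no change. With the replicate block 4767 genes were called higher and 4879 lower, against 4112 and 4308 without it. In the protease list the genes called higher went from 2 to 4 with no filter and to 4 with the replicate block, and ran from 1 to 4 when libraries were left out, while those called lower ran from 1 to 2. When libraries were left out, the log2 change of MUC20 ran from -1.32 (without resistant replicate 1) to -4.05 (without resistant replicate 2). That of MUC12 was 1.31 without wild-type replicate 1 and 7.23 without wild-type replicate 2. The numbers of mucin-like surface proteins and of transcription factors called higher also changed with the library left out. Replacing the fitted change by a difference of mean log2(CPM + 1) gave -4.39 for MUC5AC, -1.52 for MUC16, 1.92 for MUC13 and 0.28 for MUC12. The share of MUC1 in the level per length used exon unions, and moved by less than 1 SD with the longest transcript. Depth limits MUC5B, MUC12 and the resistant levels of MUC5AC and MUC16, which rest on few counts.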
